A study of Mus musculus with 3 samples.

Results

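The members described here are the genes for collagen chains and laminin chains: every gene whose whole symbol is Col, a number, a and a number, or Lama, Lamb or Lamc with a number, and that had at least 20 unique molecular identifiers (UMIs, 1 per captured transcript) over the 3 deposited matrices. The rule gave 54 of 32594 genes, 43 collagen chains and 11 laminin chains. One further gene that matched by name, Col10a1, had 1 UMI and was left out. The rule used only the symbols and the total count, not levels across cell types or genotypes. It was set, however, with earlier results of these data known.

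The cells came from the dissociated prostate glands of C57BL6 mice aged 12 to 15 weeks, and their RNA was read cell by cell in droplets on the 10x Genomics platform. One library came from mice labelled Srd5a2 knockout and 2 libraries came from mice labelled Srd5a2 heterozygote, which keep 1 working copy of the gene. No wild-type library was analysed here. Srd5a2 encodes steroid 5-alpha-reductase type 2, the enzyme that turns testosterone into dihydrotestosterone. All tissue was digested for 2 h at 37 °C with collagenase type I in a buffer that also held dihydrotestosterone, and then with TrypLE, so the measured cells had been exposed to the hormone and to a matrix-degrading enzyme before lysis. How many animals a library stands for is not stated, so p-values can cover no more than the spread between these 3 libraries.

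Collagens are built from 3 chains wound into a triple helix. Fibrillar collagens such as types I, III and V form the fibres of connective tissue, type VI forms beaded filaments around cells, and type IV forms the sheet-like network of basement membranes. Laminins are cross-shaped trimers of 1 alpha, 1 beta and 1 gamma chain that lie beside type IV collagen in that sheet and are bound by integrins on the cell above it. In the prostate, gland epithelium of basal and luminal cells sits on such a basement membrane and is wrapped in smooth muscle and fibroblasts.

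The 3 libraries held 13273, 5000 and 13866 barcodes and 129015041, 47601747 and 100801564 UMIs, in the order knockout, heterozygote 1, heterozygote 2. All values below keep this order. The members took 0.0675%, 0.063% and 0.0764% of all UMIs. Heterozygote 1 held no barcode under 2466 UMIs, against lowest totals of 586 and 500 in the others, and the libraries shared 15 to 57 barcodes by pair. Cells were sorted into classes by 8 marker genes per class, none of them a collagen or laminin chain. In each fitted class the median cell held 3 to 8 of the 8 markers of its own class in each library and 0 or 1 of those of every other class, with 2 exceptions. Basal cells also held epithelial markers, and secretory markers of the seminal vesicle were found in every fitted class, at a median of 7 or 8 of 8 in the knockout and 3 or 4 in the heterozygotes. The fitted classes held 323, 33 and 105 fibroblasts, 618, 152 and 222 smooth muscle cells, 115, 47 and 85 endothelial cells, 136, 42 and 93 macrophages, 1568, 697 and 1181 basal cells and 1736, 2479 and 4775 luminal cells. Luminal cells with at least 10% of UMIs from secretory genes of the seminal vesicle were set apart (2585, 695 and 1384 cells). Such secretory UMIs made up 22.6%, 4.44% and 6.13% of the basal sums and 5.70%, 0.564% and 1.40% of the fibroblast sums. Srd5a2 itself gave 0, 20 and 13 UMIs in fibroblasts and 3, 52 and 47 in smooth muscle, lowest in the library labelled knockout in both. This checks the label.

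Levels are given as CPM, a gene's share of the UMIs of 1 class in 1 library in counts per 1000000. Differences are log2 fold changes ± standard error from edgeR's quasi-likelihood test, with p-values adjusted by Benjamini and Hochberg over all genes tested and called under 0.05.

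Stromal cells gave the largest share of their UMIs to the chains. Of all UMIs in fibroblasts, the members took 0.829%, 0.926% and 0.772%. The share was 0.354%, 0.466% and 0.393% in smooth muscle and 0.317%, 0.271% and 0.246% in endothelial cells. Basal cells gave 0.113%, 0.148% and 0.123%, and luminal cells 0.0576%, 0.0423% and 0.0615%. Macrophages lay lowest of the 6 fitted classes, at 0.0362%, 0.0230% and 0.0414%. The ranges of these 6 classes did not overlap. In a class sum, fewer cells that make a chain and less of its RNA per cell cannot be told apart. Among the 6 fitted classes and the cells rich in seminal vesicle RNA, with the few pericytes, glial cells and T or NK cells left out, 30 of the 54 members had their highest mean CPM in fibroblasts, 20 of them in all 3 libraries. Endothelial cells led for 8 members (4 in all libraries), smooth muscle for 6 (3), basal cells for 5 (4), macrophages for 3 (1), and luminal cells and the cells rich in seminal vesicle RNA for 1 each (1 and 0). In all, 33 of 54 members had the same leading class in all 3 libraries.

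**Figure D1:**
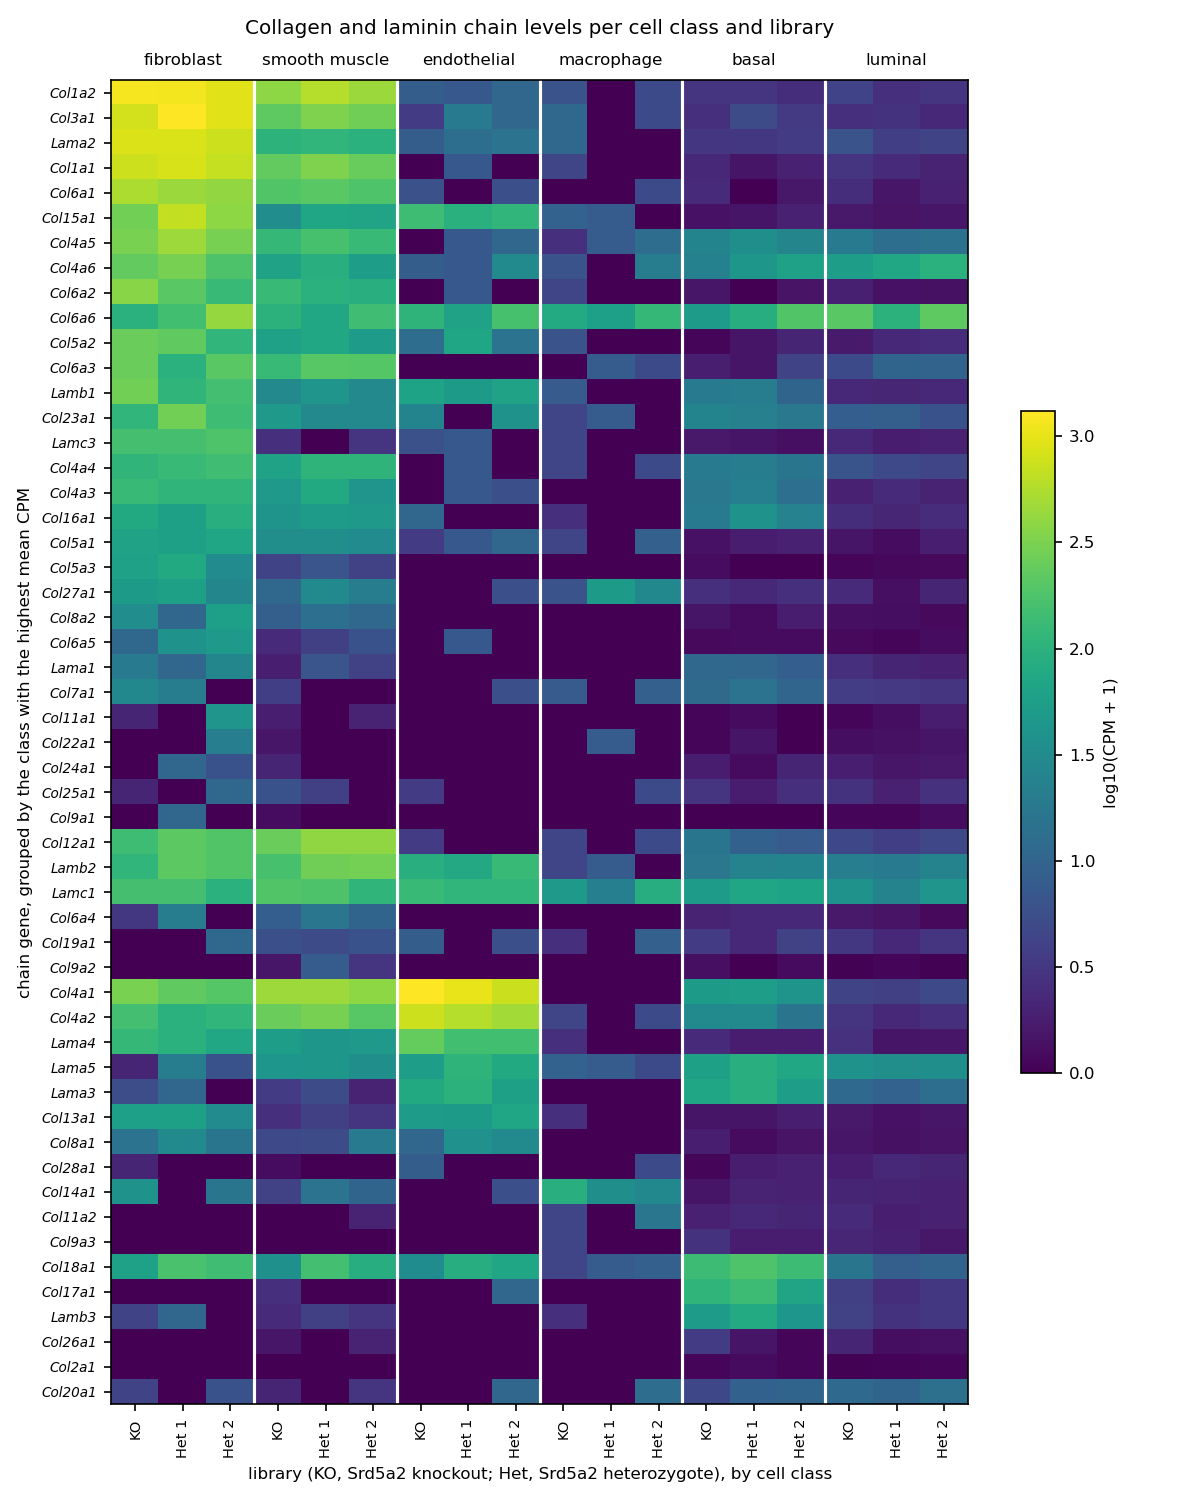
Level of 53 chain genes (rows, grouped by the fitted class with the highest mean) in 6 cell classes and 3 libraries (columns), as log10(CPM + 1) in colour. Bright blocks show fibrillar chains in fibroblasts, Col4a1 and Col4a2 in endothelial cells, and Col17a1 and Lamb3 in basal cells, each repeated across the 3 libraries. Col18a1 is grouped with basal cells, which led for it in 2 of the 3 libraries, with fibroblasts close (means of 149.9 and 122.9 CPM).

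Fibroblasts carried the fibrillar chains. Col1a1 and Col1a2, the chains of type I collagen, the main collagen of bone, tendon and most stroma, stood at 763, 859.8 and 702 CPM and 1195, 1163 and 948 CPM in fibroblasts. Smooth muscle had 230.5, 330.4 and 246 CPM of Col1a1 and 386, 589.6 and 447 CPM of Col1a2, lower in every library than any fibroblast value. The differences were 1.31 ± 0.20, adjusted p = 3.43e-05 and 0.99 ± 0.19, adjusted p = 0.000457. Col3a1, the single chain of type III collagen, found in distensible tissue, was at 802, 1309 and 942 CPM in fibroblasts and 222, 323 and 275 CPM in smooth muscle (1.65 ± 0.19, adjusted p = 6.02e-07). The type I pair kept a like balance in the 2 stromal classes. Col1a1 made up 39.0%, 42.5% and 42.6% of the pair's UMIs in fibroblasts and 37.4%, 35.9% and 35.5% in smooth muscle.

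Type V chains, which start fibrils and set their width, followed type I. Col5a1 was at 61.3, 58.6 and 66.6 CPM in fibroblasts and 34.01, 34.2 and 30.6 CPM in smooth muscle. The values did not overlap, but the difference did not pass the test (0.71 ± 0.31, adjusted p = 0.112). Col5a2 was at 249.8, 225 and 113 CPM in fibroblasts and 59.02, 71.2 and 51.04 CPM in smooth muscle (1.60 ± 0.33, adjusted p = 0.000777). Of the fitted classes, fibroblasts had the most Col5a3, at 60.2, 78.2 and 30.7 CPM against 3.37, 5.70 and 3.06 CPM in smooth muscle (3.68 ± 0.56, adjusted p = 5.76e-05). Endothelial cells had 0 UMIs of it, which makes it at least 14.8-fold higher in fibroblasts over the 3 libraries against a floor of 3 UMIs. Fibroblasts held 48.6% of its UMIs in sorted cells, and pericytes and glial cells, too few to fit, 9.29% each.

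Type VI chains split into those shared by stroma and those that were not. Col6a1 was at 541, 439.7 and 409.8 CPM in fibroblasts and 185, 211 and 183 CPM in smooth muscle (1.04 ± 0.24, adjusted p = 0.00229). Its partner Col6a2 was at 364, 205 and 128 CPM and 125, 98.3 and 91.9 CPM (0.94 ± 0.23, adjusted p = 0.0039). Col6a3, the third chain of the common trimer, did not pass between the 2 classes: 251, 97.7 and 210.0 CPM in fibroblasts and 128, 202 and 194 CPM in smooth muscle overlapped (0.23 ± 0.33, adjusted p = 0.677). Endothelial cells had 0 UMIs of Col6a3, at least 60.1-fold under fibroblasts and at least 39.0-fold under smooth muscle. Endothelial cells also had only 3 UMIs of Col6a1 and 1 of Col6a2. Of the chains that can stand in for Col6a3, Col6a5 had 9, 4 and 9 UMIs and Col6a4 2, 2 and 0 UMIs in fibroblasts, too few to pass the filter on low counts. Col6a6, the last of these, behaved unlike the other members and is described on its own further on.

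Among laminins, the alpha 2 chain set fibroblasts apart. Lama2, the alpha chain of merosin, whose loss causes muscular dystrophy, was at 896, 869.6 and 763 CPM in fibroblasts, 104, 112 and 98 CPM in smooth muscle and 7.30, 12.4 and 14.4 CPM in endothelial cells. Fibroblasts exceeded smooth muscle by 2.79 ± 0.20, adjusted p = 2.11e-10. Lamb1, a beta chain of many laminins, was at 281, 108 and 154 CPM in fibroblasts and 28.7, 41.3 and 28.6 CPM in smooth muscle (2.50 ± 0.31, adjusted p = 1.71e-06). The sharpest contrast was Lamc3, the gamma 3 chain (chr2:31887291-31946539, plus strand, mm10), with 155, 156 and 179 CPM in fibroblasts and 1.69, 0 and 2.04 CPM in smooth muscle (6.59 ± 0.43, adjusted p = 6.61e-11). The 190 fibroblast UMIs of Lamc3 compared with 3 in endothelial cells, a 41.4-fold difference with a 95% counting interval from 14.0 to 202.5. Its mean was 44.3 times that of the next fitted class, a wider gap than for any other member led by the same class in all 3 libraries. Pericytes, too few to fit, held 2.03% of its UMIs in sorted cells, and smooth muscle, with far more cells, 2.32%.

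Smaller or membrane-bound collagens completed the fibroblast profile. Col15a1, a basement membrane zone collagen of the multiplexin family, was at 287, 674 and 389 CPM in fibroblasts and 33.2, 66.9 and 64.3 CPM in smooth muscle (2.79 ± 0.25, adjusted p = 8.75e-09). Endothelial cells came between, at 139, 93.03 and 110.2 CPM, above every smooth muscle value. Col23a1 and Col13a1 are transmembrane collagens. Col23a1 was at 112, 283 and 138 CPM in fibroblasts and 46.7, 28.5 and 28.6 CPM in smooth muscle (1.82 ± 0.33, adjusted p = 0.000216). Col13a1 was at 56.9, 58.6 and 30.7 CPM in fibroblasts and 51.1, 49.6 and 67.1 CPM in endothelial cells, values that overlapped (-0.15 ± 0.39, adjusted p = 0.917), and at 1.69, 2.85 and 2.04 CPM in smooth muscle. Col16a1, a collagen with interrupted helices that sits on fibrils, was at 76.9, 58.6 and 92.2 CPM in fibroblasts, 39.9, 51.3 and 47.98 CPM in smooth muscle and 18.8, 37.5 and 23.1 CPM in basal cells, and differed between fibroblasts and endothelial cells (3.98 ± 0.57, adjusted p = 7.24e-06) but not, past the threshold, between fibroblasts and smooth muscle (0.64 ± 0.29, adjusted p = 0.123). Col8a2, a short-chain network collagen, was at 32.3, 9.77 and 56.3 CPM in fibroblasts (1.67 ± 0.52, adjusted p = 0.0246 against smooth muscle) and had 0 UMIs in endothelial cells, at least 8.93-fold lower. Col27a1, a fibrillar chain of cartilage, was at 49.1, 58.6 and 25.6 CPM in fibroblasts and had 1 UMI in endothelial cells.

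Between fibroblasts and smooth muscle, 24 of 38 members tested passed, 19 higher in fibroblasts and 5 lower. Over all 10132 genes tested, 22.8% passed, 10.5% higher and 12.3% lower. The median difference of the members was 0.99, against 0.01 over all genes. Between fibroblasts and endothelial cells, 30 of 38 passed (25 higher, 5 lower), with 31.6% over all genes (17% higher, 14.6% lower). There the median was 3.96, or 3.38 with the 5 members that had 0 UMIs in 1 of the classes put at their bound, against 0.17 over all genes.

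Smooth muscle had its own leading chains. Col12a1, a fibril-associated collagen of tissues under tension (chr9:79598991-79718831, minus strand, mm10), was at 257, 400.2 and 402 CPM in smooth muscle and 142, 215 and 184 CPM in fibroblasts (-1.28 ± 0.28, adjusted p = 0.00139), with every smooth muscle value above every fibroblast value. Endothelial cells had 1 UMI of Col12a1 against 1588 in smooth muscle. Lamb2, the beta 2 chain of muscle and vessel basement membranes, was at 162, 278 and 289.9 CPM in smooth muscle and 113, 215 and 184 CPM in fibroblasts. The ranges overlapped, but smooth muscle was higher within each library (-0.79 ± 0.20, adjusted p = 0.00536). Lamc1, the gamma chain of most laminins, was broad: 183, 174 and 108 CPM in smooth muscle, 155, 156 and 97.3 CPM in fibroblasts and 127, 112 and 110.2 CPM in endothelial cells did not differ past the threshold (fibroblasts against smooth muscle -0.39 ± 0.27, adjusted p = 0.34, smooth muscle against endothelial cells 0.63 ± 0.28, adjusted p = 0.0755). Lama5, the alpha chain of laminins in mature epithelial and vessel basement membranes, was at 42.7, 44.1 and 34.7 CPM in smooth muscle and had only 1, 2 and 1 UMIs in fibroblasts (-3.70 ± 0.49, adjusted p = 4.56e-06). Between smooth muscle and endothelial cells, 24 of 38 members passed (18 higher in smooth muscle, 6 lower), with 41.4% over all genes (23.6% higher, 17.8% lower). The median was 2.01, or 1.06 with the 4 members at 0 UMIs in 1 class put at their bound, against 0.19 over all genes.

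The 6 chains of type IV collagen are encoded as 3 head-to-head pairs, each pair transcribed outward from a shared start region, and the pairs behaved differently. Col4a1 and Col4a2, which form the common network of nearly every basement membrane, lie on chromosome 8 (chr8:11198423-11312826, minus strand, and chr8:11312805-11449287, plus strand, mm10 with GENCODE vM21 models), and the 2 annotations overlap by 22 bases. Col4a3 and Col4a4 on chromosome 1 start 72 bases apart, and Col4a5 and Col4a6 on chromosome X 1309 bases apart. The 2 chromosome 8 promoters are shown because the pair's levels moved together across cell classes. The RefSeq windows run from 250 bases before to 50 bases after each start (GRCm38.p6, Col4a1 chr8:11312777-11313076 on the minus strand, Col4a2 chr8:11312555-11312854 on the plus strand), each read 5′ to 3′ on its own strand, and share 78 bases. Capitals mark the letters CCAAT or GGGCGG on either strand.
Col4a1: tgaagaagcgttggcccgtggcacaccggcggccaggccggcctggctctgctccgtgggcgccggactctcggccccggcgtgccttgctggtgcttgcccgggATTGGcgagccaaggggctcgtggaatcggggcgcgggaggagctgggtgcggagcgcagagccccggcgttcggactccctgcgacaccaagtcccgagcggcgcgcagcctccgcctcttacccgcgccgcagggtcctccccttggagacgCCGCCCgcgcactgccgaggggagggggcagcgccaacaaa
Col4a2: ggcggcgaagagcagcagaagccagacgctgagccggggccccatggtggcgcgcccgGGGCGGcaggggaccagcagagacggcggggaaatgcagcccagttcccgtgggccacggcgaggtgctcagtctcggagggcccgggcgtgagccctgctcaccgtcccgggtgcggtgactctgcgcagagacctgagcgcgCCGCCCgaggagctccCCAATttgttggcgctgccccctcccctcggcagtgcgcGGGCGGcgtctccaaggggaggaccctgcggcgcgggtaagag
The Col4a1 window held CCAAT 1 time and GGGCGG 1 time, and the Col4a2 window 1 and 3 times. Of all 32851 RefSeq windows of this length, 37.4% held CCAAT and 35.7% GGGCGG on either strand. Of the 43 windows found for 39 members, 14 (32.6%) held CCAAT and 26 (60.5%) held GGGCGG. A match is a run of letters, not a bound site.

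Of the fitted classes, endothelial cells had the most Col4a1 and Col4a2. Col4a1 was at 1310.0, 1030.0 and 743 CPM there, 462, 460.0 and 386 CPM in smooth muscle and 306, 225 and 195 CPM in fibroblasts. The 3 classes did not overlap, and smooth muscle was below endothelial cells (smooth muscle minus endothelial -1.004 ± 0.20, adjusted p = 0.0003) and above fibroblasts (fibroblasts minus smooth muscle -1.04 ± 0.22, adjusted p = 0.00117). Col4a2 was at 749.8, 595 and 484 CPM, 252, 296 and 204 CPM and 154, 97.7 and 113 CPM in the same classes (smooth muscle minus endothelial -1.06 ± 0.20, adjusted p = 0.000168). Basal cells had 48.5, 54.98 and 39.96 CPM of Col4a1 and 29.6, 29.9 and 14.96 CPM of Col4a2, and luminal cells 3.35, 2.92 and 3.87 CPM and 1.97, 1.30 and 1.69 CPM (basal minus luminal 3.71 ± 0.22, adjusted p = 1.37e-11 for Col4a1). The luminal values were under those in barcodes with fewer than 500 genes, where the knockout and heterozygote 2 had 21.6 and 16.1 CPM of Col4a1. Col4a1 made up 60.6% to 72.8% of the pair's UMIs in every library of the 5 classes of stroma, vessel and epithelium. In cells rich in seminal vesicle RNA it made up 51.9%, 58.8% and 52.4%.

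Col4a3 and Col4a4, whose products combine with Col4a5 in the kidney filter, were nearly undetected in endothelial cells. Col4a3 was at 125, 108 and 108 CPM in fibroblasts, 47.2, 76.9 and 40.8 CPM in smooth muscle and 16.8, 21.4 and 12.7 CPM in basal cells, and endothelial cells had 2 UMIs. Col4a4 was at 109, 127 and 143 CPM, 60.99, 105 and 105 CPM and 18.2, 19.7 and 15.4 CPM in these classes, and endothelial cells had 1 UMI. Fibroblasts thus held a 47.05-fold (interval 12.8 to 392.3) higher level of Col4a3 and a 90.8-fold (16.0 to 3613) higher level of Col4a4 than endothelial cells. The balance within the pair differed between luminal and basal cells. Col4a3 made up 14.6%, 27.0% and 23.2% of the pair's UMIs in luminal cells and 47.9%, 52.1% and 45.1% in basal cells, with no overlap of the exact 95% intervals within any library. Luminal levels were low, at 0.935, 1.42 and 1.04 CPM of Col4a3 and 5.46, 3.84 and 3.45 CPM of Col4a4, and in the knockout and heterozygote 2 lay under those in barcodes with fewer than 500 genes (6.75 and 5.82 CPM and 7.21 and 7.17 CPM).

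The balance of the chromosome X pair set luminal cells apart. Col4a5 and Col4a6 encode the chains of a type IV network of smooth muscle and epithelial basement membranes. Col4a5 was at 309, 459 and 297 CPM in fibroblasts, 119.5, 161 and 128 CPM in smooth muscle, 24.6, 34.5 and 25.01 CPM in basal cells and 17.6, 12.3 and 13.4 CPM in luminal cells. Col4a6 was at 229.7, 303 and 174 CPM, 61.8, 88.3 and 53.1 CPM, 22.5, 44.3 and 59.5 CPM and 53.5, 73.9 and 96.4 CPM in the same classes. Col4a6 was lower in basal than in luminal cells within each library, although the ranges overlapped (-0.93 ± 0.23, adjusted p = 0.00154), whereas Col4a5 was higher in basal cells (0.90 ± 0.18, adjusted p = 0.000262). As a share of the pair's UMIs, Col4a6 made up 34.1%, 35.4% and 29.4% in smooth muscle, 42.7%, 39.7% and 37.0% in fibroblasts, 47.8%, 56.2% and 70.4% in basal cells and 75.2%, 85.7% and 87.8% in luminal cells. The luminal share was above the basal share in every library, outside the exact 95% intervals (72.9% to 77.5% against 43.9% to 51.6% in the knockout). The basal interval of the knockout overlapped that of its fibroblasts (38.2% to 47.2%). The luminal level of Col4a6 exceeded that in barcodes under 500 genes (31.97 and 42.5 CPM in the knockout and heterozygote 2), and luminal cells supplied 7741 of its 10019 UMIs in sorted cells. The basal level lay under that of these barcodes in the knockout and above it in heterozygote 2.

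**Figure D2:**
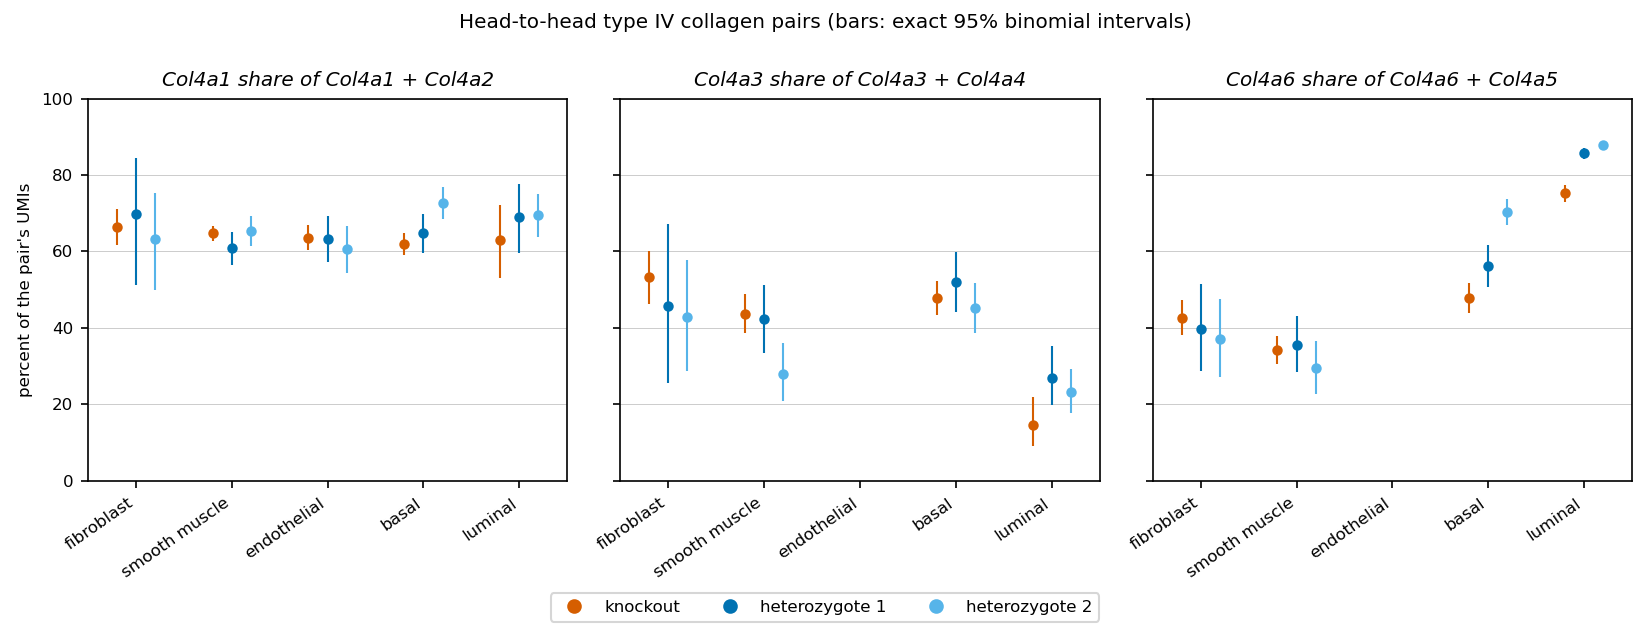
Share of a pair's UMIs taken by Col4a1, Col4a3 and Col4a6 in the 5 classes of stroma, vessel and epithelium (x axis), by library (colour), in percent, with exact 95% binomial intervals; classes with fewer than 10 UMIs of a pair are left blank. Col4a1 stays between 60.6% and 72.8% across these 5 classes, whereas Col4a6 goes from 29.4% in 1 smooth muscle sum to 87.8% in 1 luminal sum.

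Vessel cells also led for the laminin alpha chains Lama4 and Lama3 in all 3 libraries. Lama4, the alpha chain of endothelial and mesenchymal laminins, was at 241, 149 and 149 CPM in endothelial cells and 117, 97.7 and 71.7 CPM in fibroblasts, without overlap (fibroblasts minus endothelial -0.96 ± 0.25, adjusted p = 0.00442). Lama3, an alpha chain of epithelial laminin, was at 77.9, 99.2 and 57.5 CPM in endothelial cells and at 69.5, 88.6 and 53.5 CPM in basal cells, overlapping ranges, and at 2.53, 4.27 and 1.02 CPM in smooth muscle (smooth muscle minus endothelial -4.74 ± 0.44, adjusted p = 1.49e-08). Lama5 was at 53.6, 105 and 76.7 CPM in endothelial cells and 58.5, 91.7 and 70.5 CPM in basal cells, which were higher in the knockout. Endothelial cells were not tested against basal cells. Endothelial cells held 32, 16 and 12 UMIs of Lama3 and 0 of Lamb3, a beta chain with which it assembles in epithelium.

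Basal cells carried more of the attachment apparatus of the epithelium than luminal cells. Lama3 and Lamb3 are chains of the laminin to which hemidesmosomes bind, Col17a1 is the transmembrane collagen of the hemidesmosome, and Col7a1 forms the fibrils that anchor the sheet to the stroma. Lamb3 (chr1:193207699-193343878, plus strand, mm10), which overlaps G0s2 and Hsd11b1 on the other strand, was at 49.7, 78.8 and 42.6 CPM in basal and 3.15, 1.88 and 2.16 CPM in luminal cells (4.47 ± 0.22, adjusted p = 8.87e-13). Lama3 was at 69.5, 88.6 and 53.5 CPM and 10.5, 8.67 and 12.3 CPM (2.66 ± 0.21, adjusted p = 1.02e-09). For both chains every basal value was above every luminal value. Luminal cells held 219 UMIs of Lamb3 against 1383 in basal cells. The luminal values of Lamb3 were below those in barcodes under 500 genes (3.60 and 4.48 CPM in the knockout and heterozygote 2).

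Col17a1 (chr19:47646344-47692094, minus strand, mm10) was at 109, 135 and 64.8 CPM in basal and 2.85, 1.57 and 2.22 CPM in luminal cells (5.41 ± 0.28, adjusted p = 9.15e-12). Fibroblasts had 0 UMIs of it, which allows up to 2.51 CPM over the 3 libraries. Its RefSeq promoter window (GRCm38.p6, chr19:47691993-47692292, minus strand, 5′ to 3′) is shown as that of the member with the largest difference between basal and luminal cells, with the letters TATAAA and CCAAT on either strand in capitals.
Col17a1: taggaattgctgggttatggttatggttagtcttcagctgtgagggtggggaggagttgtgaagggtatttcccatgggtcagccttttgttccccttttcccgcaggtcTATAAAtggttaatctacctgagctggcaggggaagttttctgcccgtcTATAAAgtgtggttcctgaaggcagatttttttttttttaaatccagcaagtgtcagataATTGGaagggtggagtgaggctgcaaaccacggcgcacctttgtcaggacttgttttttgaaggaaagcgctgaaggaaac
The window held TATAAA 2 times and CCAAT 1 time. Of all windows, 13.6% held TATAAA, and of the 43 member windows 4 (9.30%) did.

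Col7a1 was at 11.04, 14.3 and 9.33 CPM in basal and 2.71, 2.30 and 1.98 CPM in luminal cells (2.22 ± 0.33, adjusted p = 8.58e-06). In fibroblasts it had 25, 2 and 0 UMIs. Their mean was 15.8 CPM, against 11.6 CPM in basal cells, and fibroblasts led in 2 of the 3 libraries. Col7a1 was also higher in fibroblasts than in smooth muscle (3.33 ± 0.69, adjusted p = 0.000889). Col18a1, the multiplexin whose end is the fragment endostatin, was at 136, 178 and 135 CPM in basal and 15.2, 7.71 and 8.89 CPM in luminal cells (3.76 ± 0.31, adjusted p = 7.52e-10). Col16a1 (4.08 ± 0.25, adjusted p = 4.31e-12), Lamb1 (3.45 ± 0.29, adjusted p = 1.02e-09) and Col4a3 (3.79 ± 0.24, adjusted p = 4e-11) were higher in basal cells as well. Lama1, the alpha chain of early embryonic laminin, was not in the joint fit and stood at 10.1, 9.73 and 7.54 CPM in basal and 1.62, 1.07 and 0.918 CPM in luminal cells, without overlap. Fibroblasts led for Lama1 in all 3 libraries, at a mean of 17.7 CPM against 9.13 CPM in basal cells, on 22 UMIs.

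In turn, 4 members were lower in basal cells than in luminal cells. Besides Col4a6 they were Col6a3 (0.849, 0.487 and 3.35 CPM in basal and 3.98, 9.13 and 8.95 CPM in luminal cells, -2.19 ± 0.42, adjusted p = 0.0002), Lama2 (2.12, 2.19 and 2.63 CPM and 5.36, 2.84 and 3.32 CPM, -0.74 ± 0.25, adjusted p = 0.0175) and Col6a6 (-0.89 ± 0.24, adjusted p = 0.00305). Of these, Col6a3 and Lama2 were lower in luminal cells than in barcodes under 500 genes (9.91 and 14.8 CPM and 16.7 and 13.4 CPM in the knockout and heterozygote 2). The part of free RNA in these luminal values was not tested. For Lamb2 the difference did not pass (-0.01 ± 0.17, adjusted p = 0.983). In all, 21 of 38 members passed between basal and luminal cells, 17 higher in basal cells and 4 lower, against 50.7% of all genes (22.2% higher, 28.5% lower). The median was 0.69, against -0.10 over all genes.

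**Figure D3:**
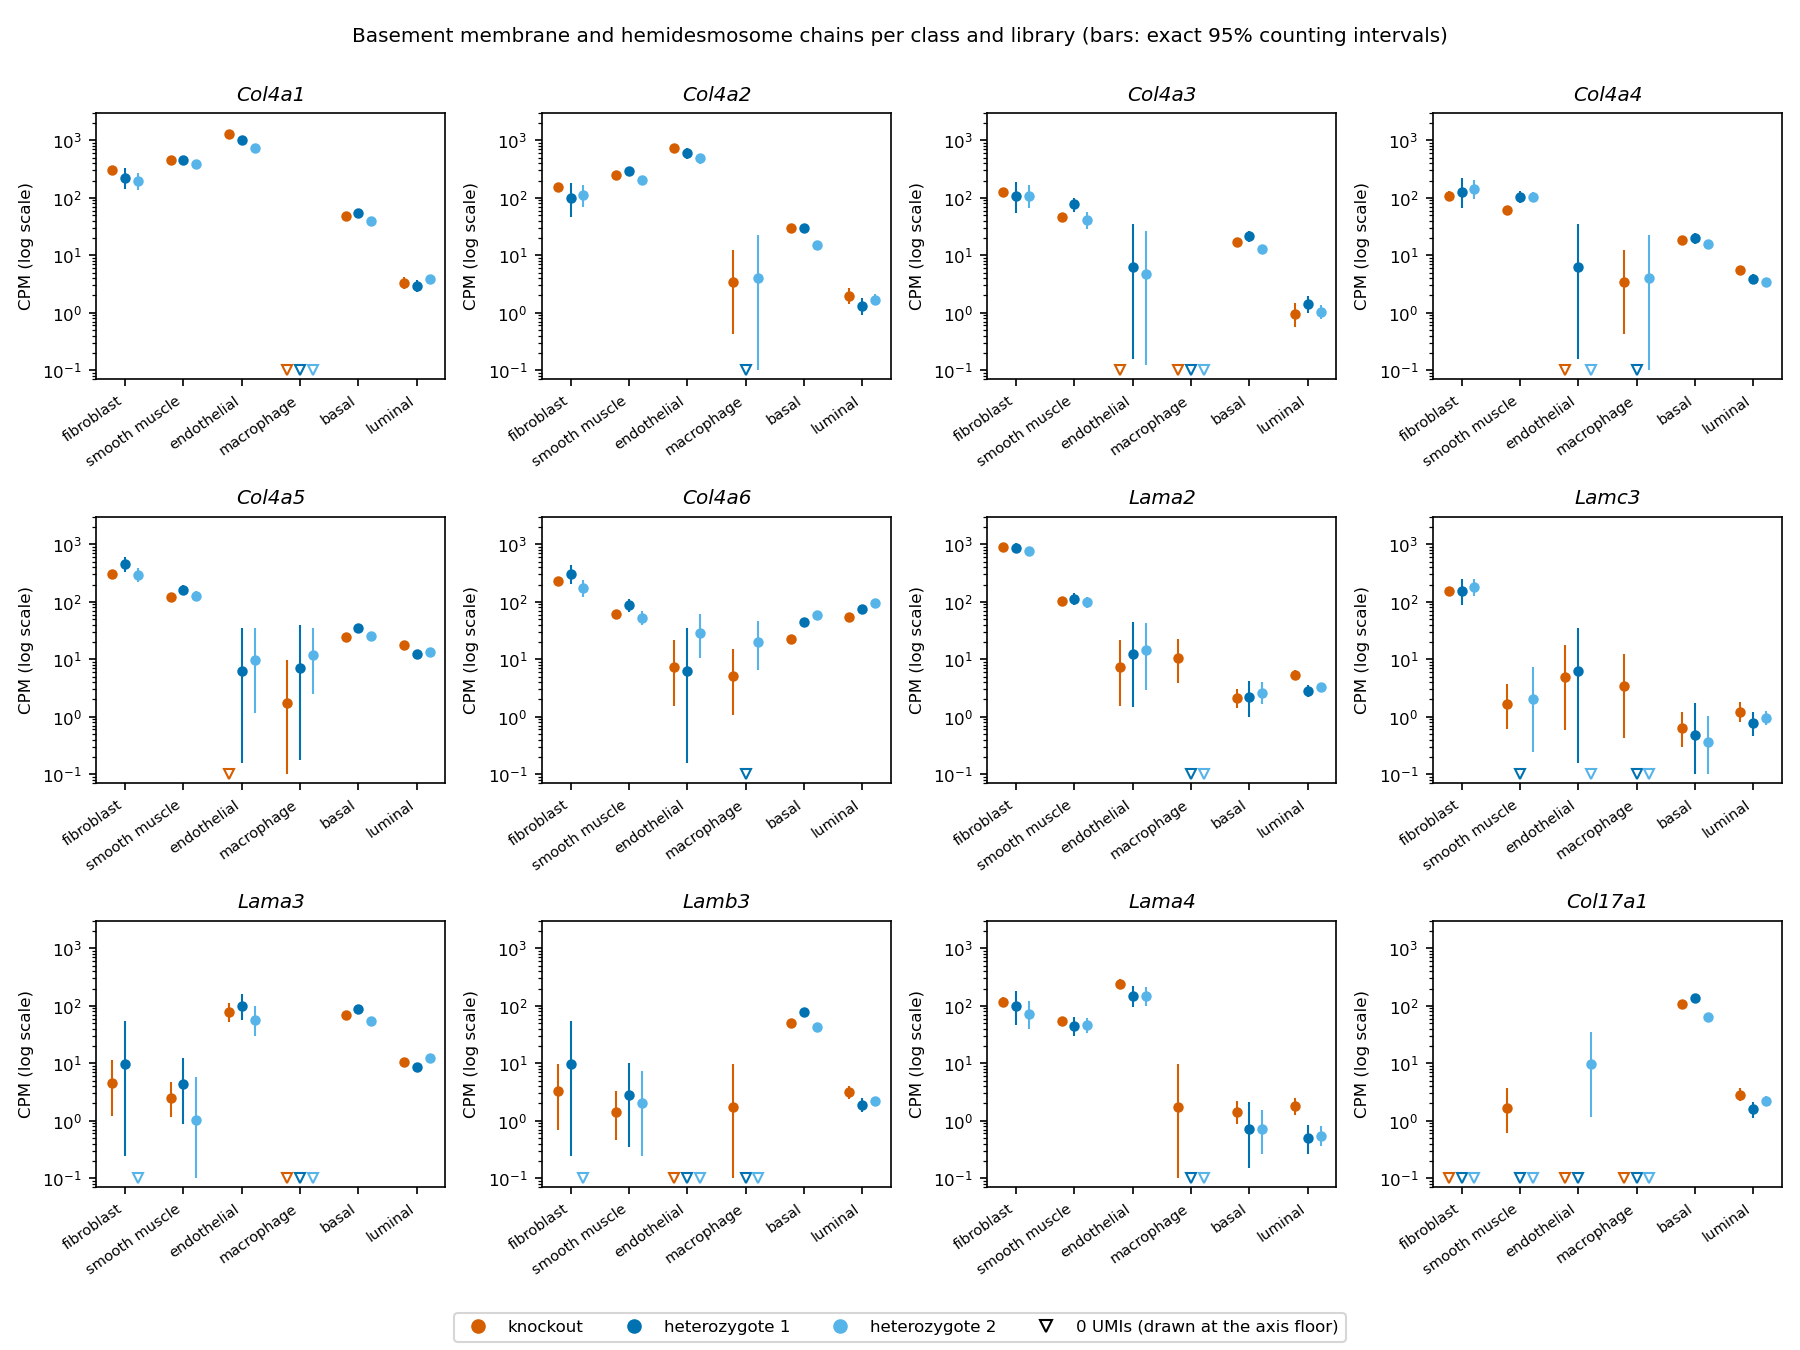
CPM (log axis) of 12 basement membrane and hemidesmosome chains in 6 cell classes, 1 point per library, with exact 95% counting intervals; open triangles mark 0 UMIs. Col17a1 and Lamb3 are highest in basal cells, and Lamc3 and Lama2 are highest in fibroblasts.

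Macrophages held few chains. By mean level Col6a6, described below, came first, then Lamc1 at 46.8, 20.9 and 87.7 CPM. Col14a1, a fibril-associated collagen, was at 91.9, 34.9 and 27.9 CPM in macrophages and 39.02, 0 and 15.4 CPM in fibroblasts, on few UMIs. Col20a1, a little-studied fibril-associated collagen, was the only member led by luminal cells among these classes in all 3 libraries, at 10.6, 9.10 and 13.1 CPM, against 3.75, 8.27 and 8.97 CPM in basal cells, so that the ranges were only just apart, and 5.40 and 2.24 CPM in barcodes under 500 genes of the knockout and heterozygote 2.

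The genes that make and bind these chains were read from 3 lists. The share of all genes called, against which their counts stand, was 22.8% for fibroblasts against smooth muscle, 31.6% for fibroblasts against endothelial cells, 41.4% for smooth muscle against endothelial cells and 50.7% for basal against luminal cells. Of 31 genes for collagen synthesis and crosslinking, 25 were tested between classes. Between fibroblasts and smooth muscle, 13 were higher in fibroblasts and 0 lower (list median 0.76). Colgalt2, a collagen galactosyltransferase, had 6 UMIs in fibroblasts and 0 in smooth muscle. Others were Crtap, part of the prolyl 3-hydroxylase complex (1.96 ± 0.31, adjusted p = 4.54e-05), Fkbp14, a prolyl isomerase of the endoplasmic reticulum (1.62 ± 0.47, adjusted p = 0.0155), and Plod1, a lysyl hydroxylase (1.44 ± 0.29, adjusted p = 0.000572). Between fibroblasts and endothelial cells 17 were higher and 1 lower (median 1.41). There Adamts2, which trims procollagen, had 88 UMIs in fibroblasts and 0 in endothelial cells, at least 19.2-fold higher. P3h3, of the prolyl 3-hydroxylase family, had 61 and 0 UMIs, at least 13.3-fold higher. Loxl1, of the lysyl oxidase family, had 96 UMIs and 1 UMI, a ratio of 62.7 (95% counting interval 10.99 to 2504). Pcolce, the enhancer of procollagen trimming, differed by 5.63 ± 0.53 (adjusted p = 1.33e-08). Between smooth muscle and endothelial cells 10 were higher and 2 lower (median 1.12). Between basal and luminal cells 10 were higher and 5 lower (median 0.37), with Sparc, a collagen-binding matricellular protein (3.53 ± 0.25, adjusted p = 4.98e-11), and Serpinh1, the collagen chaperone, higher in basal cells (3.45 ± 0.22, adjusted p = 8.29e-12) and P4hb, a subunit of prolyl 4-hydroxylase and general disulfide isomerase, lower (-1.14 ± 0.17, adjusted p = 1.11e-05).

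Of 16 receptors, 14 were tested. Between basal and luminal cells 7 were higher in basal cells and 0 lower (median 0.54), led by Bcam, a receptor for laminin alpha 5 (3.45 ± 0.24, adjusted p = 3.61e-11), Itga2, the collagen-binding integrin alpha 2 (3.26 ± 0.22, adjusted p = 2.27e-11), and Itgb4, the hemidesmosome integrin that binds laminin (2.27 ± 0.20, adjusted p = 2.88e-09). Between fibroblasts and smooth muscle 1 was higher, Mrc2, the collagen uptake receptor (3.46 ± 0.41, adjusted p = 9.01e-07), and 6 were lower (median -0.90), led by Itga1, the collagen-binding integrin alpha 1 (-4.03 ± 0.35, adjusted p = 6.75e-09). Fibroblasts had 4 higher and 5 lower than endothelial cells (median 0.26), with Ddr2, a receptor kinase for fibrillar collagen, higher (4.80 ± 0.49, adjusted p = 3.98e-08). Smooth muscle had 6 higher and 2 lower than endothelial cells (median 0.42). Of 15 basement membrane partners, 12 were tested, and 9 were higher in basal than in luminal cells with 1 lower (median 1.95), among them Fbln2 (4.04 ± 0.42, adjusted p = 9.99e-08) and Hspg2, the proteoglycan perlecan (3.64 ± 0.22, adjusted p = 3.61e-12). Fibroblasts had 2 higher and 3 lower than smooth muscle (median 0.30) and 5 higher and 3 lower than endothelial cells (median -0.13). Smooth muscle had 4 higher and 4 lower than endothelial cells (median 0.24). Tinagl1, a secreted basement membrane protein, was lower in fibroblasts than in smooth muscle (-6.11 ± 0.35, adjusted p = 1.09e-11), as was Smoc2, a secreted calcium-binding protein (-3.80 ± 0.34, adjusted p = 8.97e-09).

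The second question was whether the chains differed between genotypes within a class. With 1 knockout and 2 heterozygote libraries, the lone knockout was assumed to vary as the heterozygotes do. The spread of a gene was taken largely from all genes of the class pooled, so its p-value does not measure its own spread alone. CPM in this comparison use scaled totals (edgeR's TMM). In fibroblasts, 0 of 31 members tested passed, 4 had an unadjusted p under 0.05, and 1.16% of 4470 genes passed. In smooth muscle 0 of 32 passed, 6 had an unadjusted p under 0.05, and 0.157% of 8904 genes passed. In endothelial cells the count was 0 of 13, with 2 under 0.05 unadjusted and 1.04% of 4404 genes. In basal cells it was 0 of 36, with 5 under 0.05 and 0.0433% of 13858 genes. In macrophages it was 0 of 4, with 1 under 0.05 and 0.271% of 4433 genes. In luminal cells 1 of 48 members passed, 5 had an unadjusted p under 0.05, and 3.19% of 17106 genes passed, 1.7% lower in the knockout. Over all genes, an unadjusted p under 0.05 was found for 299 in fibroblasts, 893 in smooth muscle, 290 in endothelial cells, 1098 in basal cells, 188 in macrophages and 1936 in luminal cells. DESeq2 called 0 members in each of the 6 classes. Member medians were 0.15, -0.12, 0.17, 0.37, 0.31 and -0.24 in fibroblasts, smooth muscle, endothelial, basal, luminal cells and macrophages, and medians over all genes lay between -0.03 and -0.01.

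The 1 member called was Col6a3 in luminal cells (chr1:90765923-90843971, minus strand, mm10). It stood at 3.86, 9.65 and 8.76 CPM, the knockout below both heterozygotes (-1.25 ± 0.34, unadjusted p = 0.000291, adjusted p = 0.014). The call was lost with DESeq2 (-1.25, adjusted p = 0.196), with no filter on low counts (-1.26, adjusted p = 0.819) and without the highest-UMI cells (-1.12, adjusted p = 0.148). In barcodes under 500 genes Col6a3 was at 9.91 and 14.8 CPM in the knockout and heterozygote 2, above all luminal values of these libraries. Its trimer partners had the opposite order: luminal Col6a1 was at 1.53, 0.567 and 0.938 CPM and Col6a2 at 0.859, 0.446 and 0.359 CPM, both with the knockout above both heterozygotes and neither past the threshold. Both lay under the levels in barcodes with fewer than 500 genes, where the knockout was also higher than heterozygote 2 (17.1 and 6.72 CPM of Col6a1 and 13.5 and 5.37 CPM of Col6a2). The part of free RNA in these values was not tested. In smooth muscle Col6a3 was at 139, 195 and 195 CPM, also lowest in the knockout (-0.49 ± 0.23, unadjusted p = 0.0761, adjusted p = 0.547), and in fibroblasts at 304, 100.1 and 244 CPM, with the knockout highest (0.76 ± 0.44, unadjusted p = 0.0836, adjusted p = 0.861).

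For Col18a1, the direction of the genotype values differed between classes. In smooth muscle it was at 38.9, 147 and 88.3 CPM, the knockout below both heterozygotes (-1.58 ± 0.35, unadjusted p = 0.00288, adjusted p = 0.221). It was called there, in the same direction, under 6 alternative settings, with differences from -1.49 to -1.76. In these settings 1.77% to 4.65% of all smooth muscle genes were called, against 0.157% before, and with RLE size factors or DESeq2 Col18a1 was not called. In fibroblasts it was at 71.6, 170.1 and 167 CPM (-1.23 ± 0.49, unadjusted p = 0.0119, adjusted p = 0.386) and in endothelial cells at 37.3, 89.8 and 73.4 CPM (-1.11 ± 0.60, unadjusted p = 0.0652, adjusted p = 0.812), again lowest in the knockout. In luminal cells the order was turned, at 14.7, 8.15 and 8.70 CPM (0.80 ± 0.29, unadjusted p = 0.00564, adjusted p = 0.125), and in basal cells, where the level was high, the values were 162, 162 and 126 CPM (0.18 ± 0.27, unadjusted p = 0.548, adjusted p = 0.877). A test of whether the genotype difference differed between classes, chosen after these values were seen, passed for Col18a1 (adjusted p = 0.00106). It passed for 3 of 38 members tested, and for 1.17% of 10132 genes. In barcodes under 500 genes Col18a1 was at 10.4 CPM in the knockout and 8.06 CPM in heterozygote 2. The luminal values of these libraries lay within the 95% counting intervals of those levels (6.57 to 15.5 and 4.78 to 12.7 CPM). The part of free RNA in the luminal values was not tested. The gene (chr10:77052178-77166548, minus strand, mm10) has 2 start regions in RefSeq (GRCm38.p6, minus strand), chr10:77166481-77166780 upstream and chr10:77113656-77113955 downstream, shown because counts per gene do not tell from which of them the UMIs came. Capitals mark CCAAT or GGGCGG on either strand.
Col18a1 upstream start: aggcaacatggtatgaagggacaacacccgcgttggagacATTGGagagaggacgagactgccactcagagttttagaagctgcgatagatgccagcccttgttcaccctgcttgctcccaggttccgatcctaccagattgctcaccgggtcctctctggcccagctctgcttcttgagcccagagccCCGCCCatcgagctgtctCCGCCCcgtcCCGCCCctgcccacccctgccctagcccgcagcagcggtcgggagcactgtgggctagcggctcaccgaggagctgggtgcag
Col18a1 downstream start: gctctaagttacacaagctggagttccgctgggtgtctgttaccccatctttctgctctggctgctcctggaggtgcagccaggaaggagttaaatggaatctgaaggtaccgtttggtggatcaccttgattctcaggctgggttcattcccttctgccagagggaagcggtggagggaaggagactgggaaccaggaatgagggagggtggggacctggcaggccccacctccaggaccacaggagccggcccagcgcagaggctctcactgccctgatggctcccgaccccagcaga
The upstream window held GGGCGG 3 times and CCAAT 1 time, and neither run of letters was in the downstream window. Col18a1 overlaps Slc19a1 on the other strand, and the sources used here do not say whether counting used strand.

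Col12a1 and Col6a6 were the other 2 members past that test (adjusted p = 0.0397 and 0.0377). Col12a1 was at 18.1, 7.52 and 6.44 CPM in basal cells, the knockout above both heterozygotes (1.39 ± 0.29, unadjusted p = 0.00488, adjusted p = 0.447), and at 279, 385 and 405 CPM in smooth muscle, the knockout below both (-0.50 ± 0.24, unadjusted p = 0.0765, adjusted p = 0.548). In fibroblasts it was at 172, 220.1 and 214 CPM and in luminal cells at 3.67, 2.96 and 3.49 CPM. In barcodes under 500 genes Col12a1 was at 10.4 CPM in the knockout and 7.17 CPM in heterozygote 2. The basal value was above this level in the knockout and under it in heterozygote 2. The part of free RNA in the basal values was not tested. The knockout basal sum was also the one richest in secretory UMIs of the seminal vesicle. Without cells of any class that held 10% or more of such UMIs, the adjusted p for Col12a1 across classes was 0.0241.

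Several members lay outside both heterozygotes with an unadjusted p under 0.05 and did not pass after adjustment. In fibroblasts these were Col6a2 (440.4, 210.1 and 149 CPM, 1.32 ± 0.43) and Lamb1 (340.5, 110.1 and 178 CPM, 1.20 ± 0.44), both highest in the knockout, besides Col18a1 and Col6a6. In endothelial cells Lama4 (284, 154 and 162 CPM, 0.84 ± 0.35) and Col4a1 (1543, 1064 and 813 CPM, 0.72 ± 0.34) were highest in the knockout. In smooth muscle Col15a1 (36.1, 64.4 and 64.7 CPM, -0.84 ± 0.25), Lamb2 (177, 267 and 292 CPM, -0.66 ± 0.24), Col4a4 (66.4, 101 and 106 CPM, -0.64 ± 0.24) and Col27a1 (11.02, 28.8 and 19.5 CPM, -1.10 ± 0.43) were lowest in the knockout and Col23a1 (50.8, 27.4 and 28.8 CPM, 0.85 ± 0.28) highest. In basal cells, besides Col12a1, Col26a1, Col23a1 and Col9a3 were highest in the knockout and Col4a6 lowest (26.8, 40.3 and 55.2 CPM, -0.84 ± 0.29). In luminal cells Col4a6 was again lowest in the knockout (51.9, 78.1 and 94.3 CPM, -0.73 ± 0.31) and Lama4 highest (1.72, 0.527 and 0.539 CPM, 1.68 ± 0.57). These values of Lama4 lay under those in barcodes with fewer than 500 genes (5.40 and 5.82 CPM in the knockout and heterozygote 2). In macrophages Col14a1 was highest in the knockout (102, 36.3 and 30.5 CPM, 1.62 ± 0.51), on 53, 5 and 7 UMIs.

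Col26a1, a small collagen-like protein first described in testis and ovary, was found mainly in cells rich in seminal vesicle RNA. It had 319, 7 and 20 UMIs there (4.80, 0.621 and 0.942 CPM on plain totals), 37, 2 and 1 in basal and 23, 8 and 19 in luminal cells. Per UMI of the class, the knockout was highest in each of the 3. In barcodes under 500 genes Col26a1 was at 3.60 CPM in the knockout, above its basal and luminal levels there, and had 0 UMIs in heterozygote 2. The part of free RNA in the basal and luminal values was not tested. These seminal vesicle RNA-rich cells made up 25.9%, 14.7% and 13.1% of the cells kept. With them counted as luminal, 4 members passed by genotype in luminal cells: Col26a1 (3.87, adjusted p = 3.61e-20) and Lama4 (2.12, adjusted p = 3.41e-06) higher in the knockout, and Col6a3 (-1.54, adjusted p = 0.000497) and Col4a6 (-1.25, adjusted p = 0.00169) lower. The part of the unequal mix of cells in these 4 values was not tested.

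Of the lists of partner genes, 2 genes passed by genotype, both in luminal cells and both higher in the knockout. Frem1, an extracellular matrix protein of epithelial basement membranes, differed by 1.28 (adjusted p = 0.00814), and Itga2 by 1.51 (adjusted p = 1.12e-05). In luminal cells 27, 14 and 15 genes of the 3 lists were tested, and 3.19% of all genes passed, a share near that of the lists. No gene of the 3 lists passed in the other 5 classes.

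**Figure D4:**
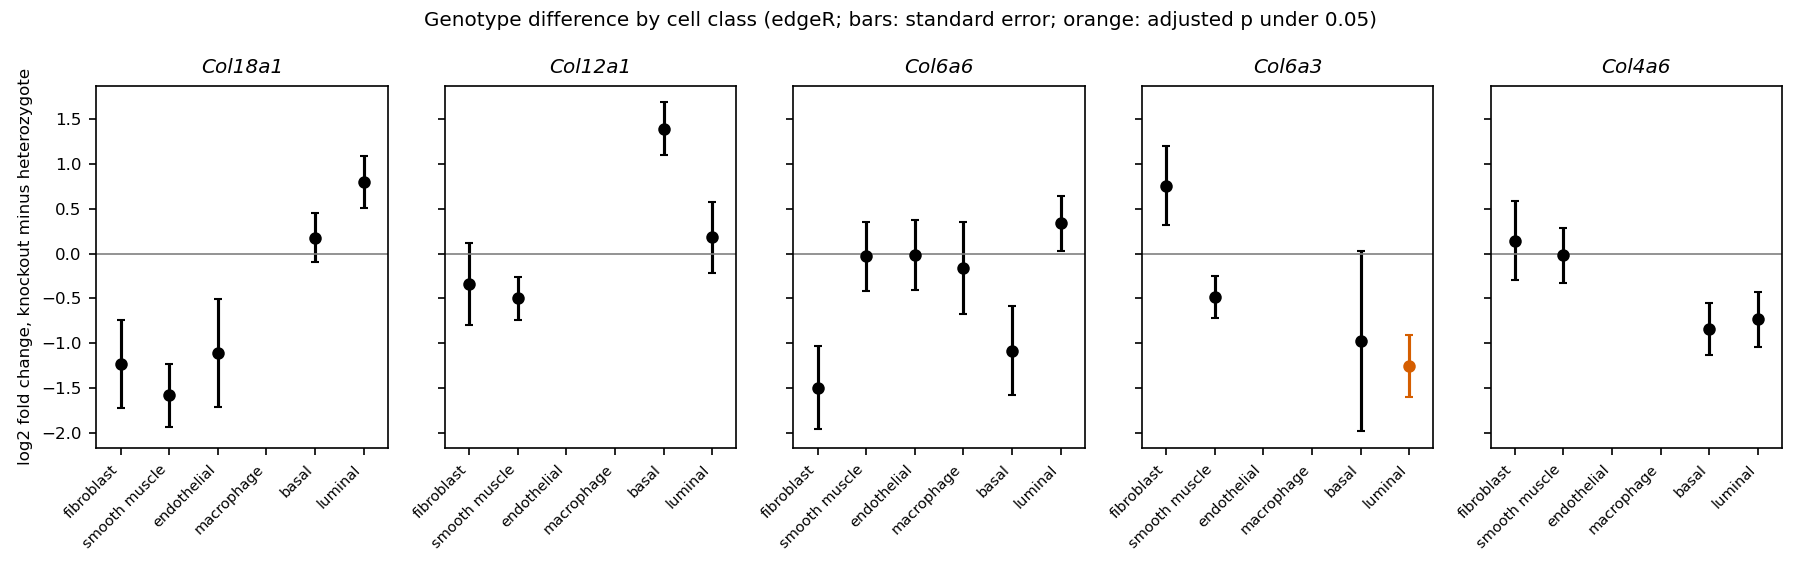
Log2 fold change (y axis, knockout minus heterozygote, edgeR, bars 1 standard error) of 5 members in the fitted classes where each passed the filter on low counts. Col18a1 is below 0 in the 3 stromal and vessel classes and above 0 in luminal cells, and the orange point is Col6a3 in luminal cells, the 1 call.

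Col6a6, an alpha chain of type VI collagen (chr9:105687809-105828160, minus strand, mm10), which overlaps the predicted gene Gm38314 on the other strand, had the largest count of all members, 41242 UMIs, and stood apart from the others in how its UMIs were spread. Its level was 95.9, 147 and 415 CPM in fibroblasts, 209, 100.2 and 219 CPM in luminal cells, 49.7, 87.1 and 183 CPM in basal cells and 79.8, 55.8 and 119.5 CPM in macrophages, so that no class stood out. In barcodes under 500 genes it was at 1438 CPM in the knockout and 748 CPM in heterozygote 2, and in barcodes with 4000 or more genes at 33.5, 39.1 and 93.2 CPM. The other members summed were at 508 and 367 CPM in barcodes under 500 genes and highest (1484, 1263 and 1220.0 CPM) in those with at least 1000 and under 2000 genes. Barcodes with 20 or more Col6a6 UMIs numbered 128, 23 and 149 (0.964%, 0.460% and 1.08% of all) and held 56.4%, 46.4% and 51.4% of its UMIs.

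Other genes were high in the same barcodes. Chosen after their values were seen, Peak1, which encodes a pseudokinase, was at 83590.0, 52050.0 and 67060.0 CPM in them and at 1825, 530.1 and 1896 CPM in the other barcodes of similar gene number, and Gm26917, a predicted gene, at 14040.0, 5326 and 9184 CPM against 545, 69.9 and 281 CPM. In luminal cells, leaving out the 29, 17 and 81 such barcodes lowered Col6a6 to 57.1, 49.8 and 85.3 CPM. In basal cells it went to 47.3, 54.3 and 90.2 CPM without 1, 1 and 9 barcodes, and in fibroblasts of heterozygote 2 from 415 to 228 CPM without 1 barcode. The genotype values of Col6a6 rest in part on these barcodes. On scaled totals they were 116, 150.1 and 482 CPM in fibroblasts (-1.49 ± 0.46, unadjusted p = 0.00122, adjusted p = 0.0867) and 59.3, 79.2 and 170.2 CPM in basal cells (-1.08 ± 0.50, unadjusted p = 0.0805, adjusted p = 0.658), with heterozygote 2 highest in each class named here. What part these barcodes play in the difference across classes was not tested.

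**Figure D5:**
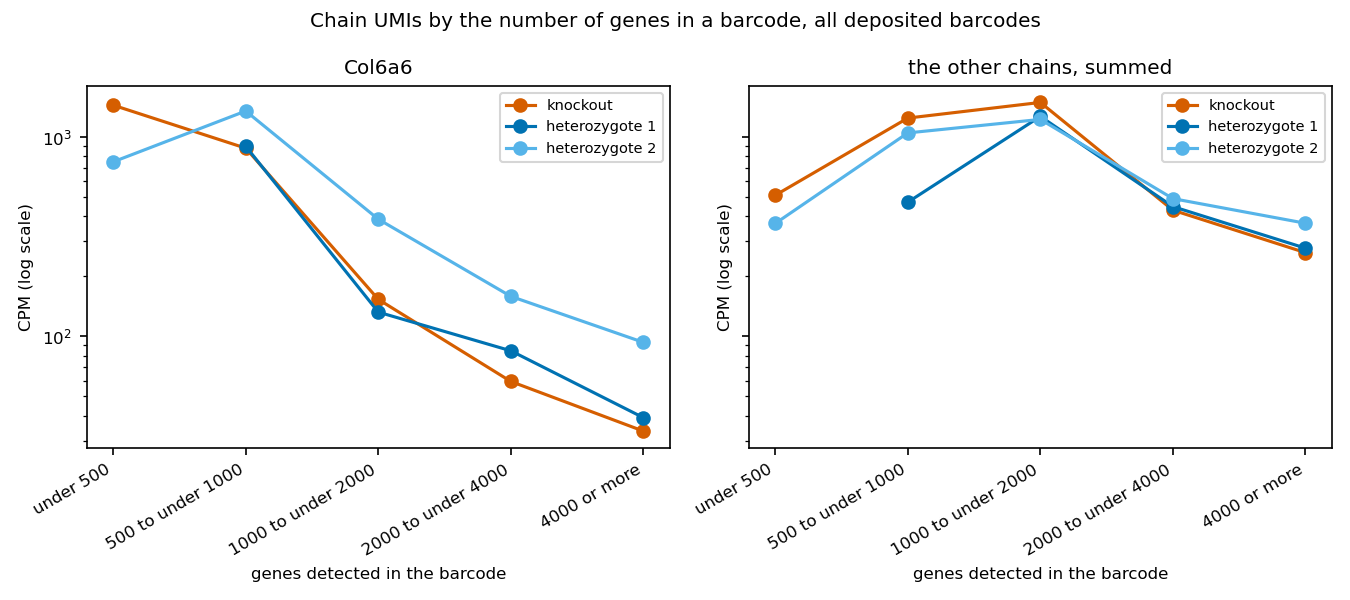
CPM (log axis) of Col6a6 and of the other 53 chains summed, by the number of genes detected in a barcode, over all deposited barcodes, 1 line per library (groups of fewer than 20 barcodes are not drawn). Col6a6 falls from 1438 to 33.5 CPM with gene number in the knockout, whereas the other chains peak between 1000 and 2000 genes.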

How the data were processed

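Gene counts per barcode of 3 libraries of mouse prostate were read as deposited by the authors. They are raw UMI counts, for which the submitters' processing notes name Cell Ranger 3.1.0 and the build mm10. Whether counting used strand is not given in the sources used here. Of the 54 members, 22 overlap a gene on the other strand. All 54 IDs were found in GENCODE vM21 without the version suffix (50 with it), which gave coordinates. Promoter windows came from RefSeq (GRCm38.p6) for 39 members.

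Cells were taken as barcodes that reached 500 genes and did not exceed 15% mitochondrial UMIs (9983, 4718 and 10587 in knockout, heterozygote 1 and heterozygote 2), at median depths of 4512, 7034.5 and 5387 UMIs. Classes were gated by detected markers: at least 5 of 8 for smooth muscle, 3 of 8 for the others, and for luminal cells at least 4 epithelial and at most 1 basal marker. No doublet caller was run. Instead, cells that met 2 gates (175, 46 and 86), or a non-epithelial gate with more than 3 epithelial markers (252, 85 and 408), were left out. Gates replaced an authors' annotation, so class names are rebuilt ones.

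UMIs were summed per class and library and tested with edgeR 4.0.16 (filterByExpr, TMM, quasi-likelihood F-test, R 4.3.3), with Benjamini-Hochberg adjustment over all genes. Genotype was fitted within each class with at least 30 cells in every library, which left 1 residual degree of freedom. The spread of a gene in these fits was therefore taken largely from all genes pooled. Cell classes were compared in 1 fit with library as a block, since the classes of a library share their cells' source. Whether the genotype difference varied by class was tested by an interaction term, chosen after seeing the data. DESeq2 1.42.0 was an alternative. The tests were checked on simulated data. Intervals are exact Poisson (levels) or Clopper-Pearson (shares and folds) at 95% and cover counting error only. A fold against 0 UMIs used a floor of 3 UMIs over the class.

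Members and gene lists were chosen with earlier results of these data known. Values of every library are given for members that a fit called, for the highest in each class, and for paired or trimer partners. From the partner lists, called genes are named, at most 4 per list and direction, largest difference first. The values of 1 member are not reported here, although it is part of the counts.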

Additional observations from a re-analysis of the deposited data

Results flagged for a closer look

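The genotype difference of 3 members varied between cell classes by the interaction test, which was chosen after seeing the data. For Col18a1 the adjusted p was 0.001057 (edgeR), with lower values in the knockout in smooth muscle, fibroblasts and endothelial cells and a higher value in luminal cells. For Col6a6 it was 0.0377, with the knockout below both heterozygotes in fibroblasts (116, 150.1 and 482 CPM, log2 fold change -1.49 ± 0.46). There the 2 heterozygotes themselves differed by 1.47, and leaving out 1 barcode took heterozygote 2 from 415 to 228 CPM on plain totals. For Col12a1 the adjusted p was 0.0397, with the knockout above both heterozygotes in basal cells and below both in smooth muscle. In the genotype test within single classes none of these 3 passed under the reported settings, while under alternatives Col18a1 passed in smooth muscle (6 settings) and Col6a6 in fibroblasts (2 settings). The luminal values of Col18a1, and the basal value of Col12a1 in heterozygote 2, lay near those in barcodes under 500 genes. The part of free RNA in them was not tested. The share of all genes past the interaction test was 1.17%.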

How the results depend on the processing

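The genotype comparison rests on 1 knockout library, and heterozygote 1 gave only 33 fibroblasts. Calls between cell classes changed little. The median of all genes between smooth muscle and endothelial cells was 0.19, 0.10 with RLE size factors in edgeR and 0.07 with DESeq2. Leaving out each library in turn gave 20 to 25 members between fibroblasts and smooth muscle, 26 to 29 between fibroblasts and endothelial cells, 21 to 26 between smooth muscle and endothelial cells and 19 to 22 between basal and luminal cells. Without the replicate block of library, the counts were 23, 28, 24 and 19. No paired analysis was possible because, for genotype, the labels do not tie a knockout library to a heterozygote library. Leaving out 1 heterozygote gave -1.16 and -1.18 for Col6a3 in luminal cells, with no test.

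Members called by genotype in smooth muscle rose from 0 to 1 (Col18a1) with no filter on low counts, with 1 more marker per gate, with cells at least as deep as the shallowest of heterozygote 1, without the highest-UMI cells and without cells rich in seminal vesicle RNA, and to 2 (also Col15a1) with a stricter cell filter. In fibroblasts the count rose from 0 to 1 (Col6a6) with the stricter cell filter (adjusted p = 0.00504) and without cells rich in seminal vesicle RNA (0.0488). In luminal cells it fell from 1 to 0 with no filter, with DESeq2 and without the highest-UMI cells, and rose to 4 with cells rich in seminal vesicle RNA kept as luminal. The interaction count of 3 became 5 with no filter and 1 with the deeper cells, where Col12a1 (0.0527) and Col6a6 (0.0738) no longer passed. Without the highest-UMI cells Col12a1 was at 0.0941, and with 1 more marker per gate Col6a6 was at 0.809. With 1 more marker per gate or the deeper cells, fibroblasts could not be fitted because heterozygote 1 had fewer than 30. The causes of these changes were not tested. The leaving out of cells rich in seminal vesicle RNA in all classes, and all interaction settings, were chosen after seeing the data. Over all genes, genotype calls moved from 14 to between 11 and 412 in smooth muscle, from 6 to between 0 and 286 in basal cells, from 545 to between 0 and 1150 in luminal cells, from 52 to between 16 and 60 in fibroblasts, from 46 to between 6 and 52 in endothelial cells and from 12 to between 5 and 49 in macrophages. Between classes they ranged from 1100 to 2388 for fibroblasts against smooth muscle, from 1985 to 3229 for fibroblasts against endothelial cells, both lowest without the knockout library, and, for the interaction, from 69 to 258.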

Other observations

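Classes too small for a test gave further values. In pericytes, the contractile cells around capillaries, Col4a1 had 93, 18 and 8 UMIs and Col4a2 48, 12 and 10 UMIs in 28, 3 and 9 cells. These were 1322, 1649 and 560.5 CPM and 682, 1099 and 701 CPM, above the endothelial level for Col4a1 in the knockout and heterozygote 1 and for Col4a2 in heterozygotes 1 and 2. In glial cells, found in the knockout (27 cells) and heterozygote 2 (10 cells), Col20a1 had 34 and 2 UMIs and Col28a1, a collagen of peripheral nerve, 6 and 6 UMIs. The Col20a1 counts were 565 and 147 CPM there, above the luminal level. In T or NK cells Lamb3 had 20, 1 and 2 UMIs, of 479518, 13809 and 69026 UMIs in all. Per UMI of the class this was under the basal level in each library, but far above the luminal level. Lamb3 overlaps other genes on the opposite strand, and the part of that overlap in these counts was not tested.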
